A study of Nicotiana tabacum with 12 samples.

Results

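IPS (LOC107766502) and GolS1 (LOC107794006) are 2 genes of the inositol and galactinol route, taken from the 61526 gene identifiers of a leaf count table of tobacco, Nicotiana tabacum. They were chosen by identifier, with earlier comparisons of these same counts against untransformed plants known. Their levels in the lines are therefore given as a description, with standard errors and without a test. Tests are kept for the other genes of the route and for the spread of both genes within groups. The lists of other genes were also chosen with earlier results of these data known, so nothing is read from their medians and unadjusted counts.

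The 12 libraries come from top leaves of field-grown TN90, a burley cultivar, frozen before the leaves matured. CK is untransformed TN90, called wild type in the labels. P2.4a, P3.9a and P9.10a are 3 lines of TN90 carrying NtYb1, also called EGY2, behind the 35S promoter, which is active in most tissues. Each line descends from its own primary transformant, through segregants with green stems, and each of the 4 groups has 3 libraries described as biological replicates. EGY proteins are membrane proteases of the chloroplast, and the study asked how carbon and nitrogen metabolism differ with variation at the Yb1 and Yb2 loci. The protocol text names the P3 plant with another number than the titles do, and the groups follow the titles. The gene table used for names has no symbol of the EGY family, so the transgene was not analysed here and the labels were not checked against it. P-values measure the spread between these libraries of 1 field experiment.

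Inositol-3-phosphate synthase, for which IPS is the usual symbol, turns glucose 6-phosphate into inositol 3-phosphate, the entry step of inositol synthesis. Inositol feeds membrane phosphoinositides, phytate, cell wall sugars and galactinol. Galactinol synthase (GolS) joins galactose from UDP-galactose to inositol, and galactinol is the galactose donor for raffinose and related sugars. In Arabidopsis, galactinol synthase genes are known for their induction by drought, heat and cold. The gene table gives symbols and no product names, so the roles stated here rest on the symbols. Tobacco is an allotetraploid, and how the counting treated reads of near-identical copies of either gene is unknown, so their levels are uncertain to that extent.

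The CK libraries held 16657112 to 18444571 counts each and the transgenic libraries 13536964 to 16788583. P3.9a replicate 1 stood apart from the other libraries, at -77.4 on the first principal component, while the remaining 11 spanned -26.5 to 40.3 (26.3% of the variance). CK replicate 3 was the most distant on the second component (16.3%), at 62.8. Against the rest of its group, P3.9a replicate 1 differed by a median of 0.311 on the log2 scale, compared with 0.165 to 0.232 for the other libraries. The mesophyll markers, 10 genes of light harvesting and carbon fixation, were all detected, with summed levels of 17600 to 20500 counts scaled by library size (CPM) in CK and 15000 to 22300 in the lines. Of 6 root markers 3 had no count in any library, and the summed level was 0.737 to 1.22 CPM in CK and 0.472 to 1.99 in the lines. The 5 flower markers, 1 of them at 0 everywhere, summed to 48.9 to 53.1 CPM in CK and 31.9 to 66.2 in the lines. The 4 phloem and vascular markers summed to 331 to 361 CPM in CK and 301 to 335 in the lines. The trichome marker NtABS stood at 62.4 to 68.9 CPM in CK and 61.2 to 136 in the lines, and 4 genes of dividing cells summed to 53.9 to 62.1 CPM and 59.2 to 81.3. For the mean of the lines against CK, edgeR called none of the 23 tested marker genes at an adjusted p under 0.05, where it called 0.0383% of all genes. At an unadjusted p under 0.05 stood 4 of the 23, as did 11.4% of all genes. DESeq2 called 2, NtABS and SUT1, among 446 genes in all, or 1.14% of those it tested. For single lines against CK in edgeR, NtABS passed in P3.9a (log2 difference 0.92, edgeR adjusted p = 0.0413). Its differences of 0.72 in P9.10a and 0.18 in P2.4a did not pass. The share of all genes passing in P3.9a alone is not given here. The part of cell makeup in the results below was not tested.

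IPS was an abundant leaf transcript, with 18589 to 58051 counts per library, or 0.137% to 0.315% of all counts. In CK its level was 2750, 3220 and 3320 CPM in replicates 1 to 3, with TMM scaling. In P2.4a it was 2910, 1890 and 1980 CPM. Replicate 1 of P2.4a thus lay inside the CK range, and the other two libraries of that line lay below it. In P3.9a the values were 1670, 1960 and 1890 CPM. In P9.10a they were 1930, 2190 and 1430 CPM, so that neither of these lines overlapped CK. In whole leaves, less RNA per cell and fewer cells holding it cannot be told apart.

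The IPS level was highest in CK, at 3090 ± 306 CPM (SD, n = 3), followed by P2.4a at 2260 ± 566, P9.10a at 1850 ± 387 and P3.9a at 1840 ± 154. The fitted log2 difference from CK was -0.45 (SE 0.20) in P2.4a, -0.75 (SE 0.20) in P3.9a and -0.74 (SE 0.20) in P9.10a. As a ratio to CK these are 0.731, 0.595 and 0.599. For the mean of the 3 lines the log2 difference was -0.65 (SE 0.15), a ratio of 0.639. Below every CK library lay 8 of the 9 transgenic libraries, where 4.90% of the 39207 genes tested had 8 or more there. All 3 libraries lay below CK for 6.61% of genes in P3.9a and 7.71% in P9.10a. Since the comparison with CK was known when the genes were chosen, nothing is read from these shares.

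Among the lines, neighbouring IPS levels lay within their spread. P3.9a and P9.10a differed by 0.01 on the log2 scale (SE 0.20), and both lay about as far below P2.4a, at differences of -0.30 (SE 0.20) and -0.29 (SE 0.20). The position of P2.4a rested on its replicate 1: without that library its log2 difference from CK was -0.68 in place of -0.45. P9.10a replicate 3, the library with the smallest total, had the lowest IPS level of all 12, and without it that line stood at -0.59. Without P3.9a replicate 1 the mean of the lines was -0.62.

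GolS1 was a low transcript, with 43 to 237 counts per library. In CK its level was 14.6, 4.44 and 13.8 CPM in replicates 1 to 3. Replicate 2 of CK held 80 counts, with an exact 95% Poisson interval of 63.4 to 99.6 that covers counting error only, against 237 (208 to 269) and 215 (187 to 246) in the other two. The gap inside CK was therefore wider than counting error. In P2.4a the level was 6.48, 6.12 and 4.37 CPM. In P3.9a it was 3.87, 3.16 and 2.63 CPM, and in P9.10a 4.66, 4.25 and 3.31 CPM.

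All 9 transgenic libraries were below CK replicates 1 and 3, at 6.48 CPM or less, and 6 of 9 were also below CK replicate 2; 15.3% of the genes tested had 6 or more libraries below all of CK. P3.9a was the line with no overlap with CK, all 3 libraries lying below it, as for 6.61% of the genes tested. P2.4a and P9.10a overlapped CK through CK replicate 2. Group means were 10.9 ± 5.64 CPM in CK (SD, n = 3), 5.66 ± 1.13 in P2.4a, 4.07 ± 0.690 in P9.10a and 3.22 ± 0.623 in P3.9a. The fitted log2 difference from CK was -0.95 (SE 0.35) in P2.4a, -1.41 (SE 0.36) in P9.10a and -1.76 (SE 0.37) in P3.9a, or ratios of 0.519, 0.376 and 0.295. For the mean of the lines it was -1.37 (SE 0.27), a ratio of 0.386. CK replicate 2 made that difference smaller: without it the mean difference was -1.75. Without CK replicate 1 the mean difference was -1.11, and without CK replicate 3 it was -1.17.

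**Figure D1:**
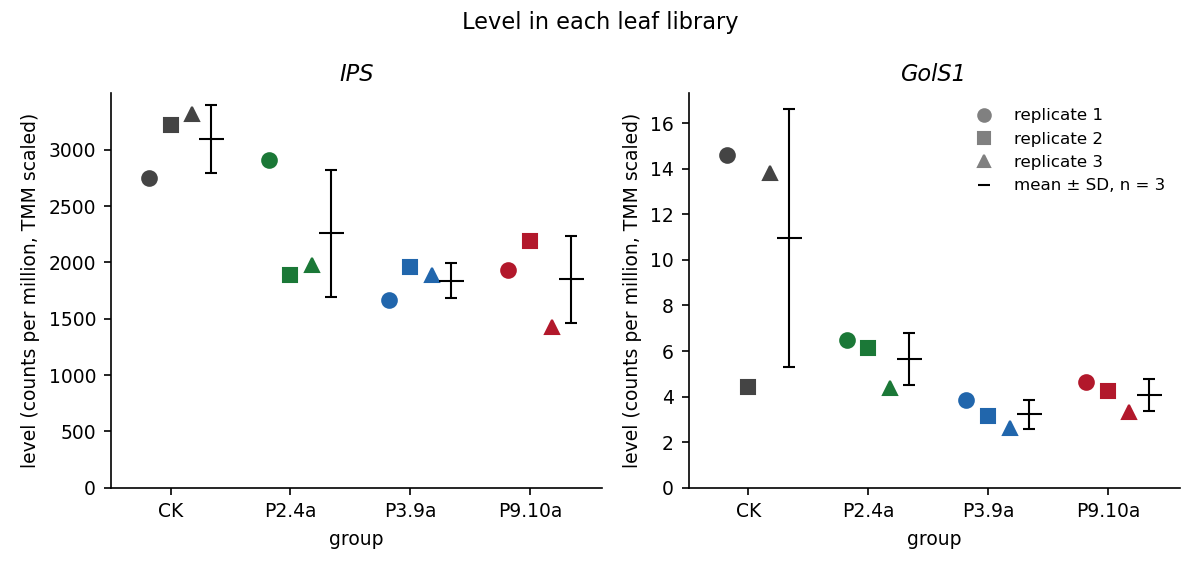
Level of IPS (left) and GolS1 (right) in each library, in CPM after TMM scaling, by group; symbols mark the replicate number, and bars give the mean and SD of 3 libraries. For IPS, P2.4a replicate 1 at 2910 CPM is the 1 transgenic library inside the CK range; for GolS1, CK replicate 2 at 4.44 CPM lies among the transgenic libraries.

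Between lines, GolS1 stood lower in P3.9a than in P2.4a by a log2 difference of -0.82 (SE 0.38). Their libraries held 2.63 to 3.87 and 4.37 to 6.48 CPM. How many of all genes are separated in this way between these lines was not counted, so nothing is read from the separation. P9.10a lay between them, at -0.47 (SE 0.37) from P2.4a and 0.35 (SE 0.39) from P3.9a, and its libraries overlapped those of both. Both genes thus had CK highest and P2.4a next. The pooled within-group SD of GolS1 was 0.53 in log2 CPM, larger than that of 91.6% of the genes tested, and that of IPS was 0.25, near the median of 0.23 over all genes. The wider spread of GolS1 came from CK replicate 2: without that library the SDs were 0.25 for GolS1 and 0.27 for IPS, and over the 3 lines alone 0.27 and 0.28. The highest library exceeded the lowest 5.53-fold for GolS1 and 2.32-fold for IPS.

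Which earlier comparison led to the choice of the 2 genes is not known, and it may have used each gene's spread inside groups. The deviations of the 2 genes inside groups were tested for a link between them. After each group's mean was subtracted, the log2 levels of IPS and GolS1 had a Pearson r of 0.073 over 12 libraries (exact permutation within groups, two-sided, p = 0.789, adjusted p = 0.789 over 3 relations). Spearman's rho was 0.196 (exact permutation p = 0.565). Without P9.10a replicate 3 and P2.4a replicate 1, the libraries with the most extreme IPS values, r was -0.144, with deviations still taken from the full group means. CK replicate 2 had the lowest GolS1 deviation of all 12, -1.10, and an IPS deviation of 0.06. P9.10a replicate 3 was low for both, at -0.35 for IPS and -0.28 for GolS1. No link inside groups was detectable with 12 libraries, which does not show that there is none.

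**Figure D2:**
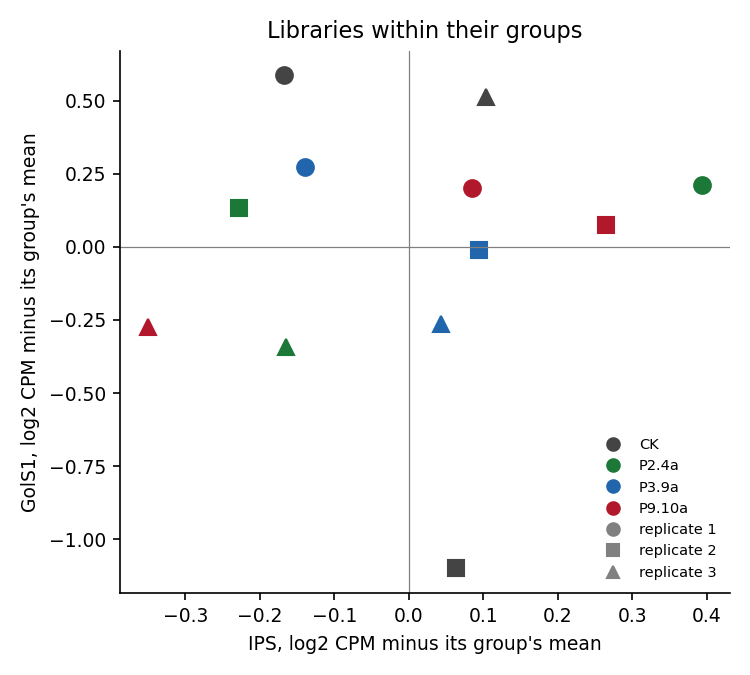
Each library's log2 CPM minus the mean of its group, for IPS (horizontal) and GolS1 (vertical); colours mark the group and symbols the replicate number. The 12 points form no line (r = 0.073), and CK replicate 2 lies lowest for GolS1 at -1.10.

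The other galactinol synthase with a symbol, GolS (LOC107821202), was close to the detection limit, with 3 to 40 counts per library. It stood at 11, 18 and 40 counts in CK, at 11, 9 and 3 in P2.4a, at 14, 3 and 4 in P3.9a and at 9, 5 and 3 in P9.10a. The highest library was CK replicate 3, while CK replicate 1, the highest for GolS1, held as few as P2.4a replicate 1. The fitted log2 difference of the mean of the lines from CK was -1.69 (SE 0.48, edgeR adjusted p = 0.190). It did not pass over all genes, where 15 genes, or 0.0383% of those tested, passed. Without P3.9a replicate 1 it passed, at -2.02 (edgeR adjusted p = 0.0313), in a fit that called 740 genes, or 1.87% of those tested. Without CK replicate 3 it stood at -0.96 (adjusted p = 0.950). Adjusted p ran from 0.0313 to 0.950 over the alternatives tried.

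Inside groups GolS had a Pearson r of 0.432 with GolS1 (exact permutation p = 0.354, adjusted p = 0.574; Spearman's rho 0.503, exact permutation p = 0.186). Without CK replicates 1 and 2, the most extreme libraries for GolS1, r was 0.912. Deviations were still taken from the full group means there, and CK replicate 3 was the only CK library left. Nothing is read from that value. With IPS the r of GolS was 0.288 (exact permutation p = 0.383, adjusted p = 0.574, rho 0.392, exact permutation p = 0.260). It was 0.0858 without P9.10a replicate 3 and P2.4a replicate 1, again with deviations from the full group means.

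Of the galactinol and raffinose list, NtSIP1 and NtSIP2 also matched, by symbol alone, and what they encode was not checked. With GolS, the 3 tested genes all had a negative log2 difference, with a median of -0.36 against 0.002 over all genes. None passed in edgeR or in DESeq2, and 1 of 3, GolS, had an unadjusted p under 0.05, as did 11.4% of all genes. NtSIP1 averaged 5.64 ± 0.893 CPM in CK (SD, n = 3) and 4.40 CPM in the lines (log2 difference -0.36, SE 0.18, edgeR adjusted p = 0.473). The median of the list is thus the value of NtSIP1.

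Downstream of IPS, 3 genes of phosphoinositide metabolism were tested, with a median log2 difference of -0.20. None passed in edgeR or DESeq2, and 1 of 3 had an unadjusted p under 0.05. This was PLC3, a phospholipase C, which splits phosphatidylinositol bisphosphate into inositol trisphosphate and diacylglycerol. PLC3 stood at 55.0, 52.9 and 68.1 CPM in CK and between 35.5 and 65.9 CPM in the lines (log2 difference -0.31, SE 0.14, edgeR adjusted p = 0.419). P3.9a replicate 1 held the 65.9 CPM. The next transgenic library, P9.10a replicate 2, stood at 52.9 CPM, below CK replicate 2 only past the digits printed. Below all of CK lay 8 of 9, where 4.90% of all genes tested had 8 or more there. VPS34, a phosphatidylinositol 3-kinase (symbol PI3K), had -0.20 (SE 0.13, adjusted p = 0.626). PIP5K6-1, a phosphatidylinositol phosphate kinase, had -0.03 (SE 0.13, adjusted p = 0.953). None of these genes, nor any other gene of the lists, passed the F test among the 3 lines, which 3 genes or 0.00765% of those tested passed.

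Inositol is also one of the possible starting points of ascorbate in plants. The 5 tested genes of ascorbate synthesis and recycling had a median log2 difference of 0.10, none passed in edgeR or DESeq2, and none had an unadjusted p under 0.05. DHAR, a dehydroascorbate reductase, had -0.22 (SE 0.16, edgeR adjusted p = 0.642), and GLDHase, whose symbol is that of the last enzyme of ascorbate synthesis, had 0.17 (SE 0.11, adjusted p = 0.602).

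Sucrose and starch genes draw on the same hexose phosphates as IPS. Of 10 tested, none passed in edgeR, 4 were lower and 1 higher at an unadjusted p under 0.05 (11.4% of all genes in either direction), and the median log2 difference was -0.18. Earlier results of these data were known when this list was chosen, so nothing is read from these counts. The sucrose transporter SUT1 had -0.59 (SE 0.11, edgeR adjusted p = 0.0570) and the hexokinase Hxk1 0.53 (SE 0.16, adjusted p = 0.206). The lines differed for Hxk1, at 1.10 (SE 0.18) in P2.4a, -0.03 (SE 0.19) in P3.9a and 0.53 (SE 0.19) in P9.10a, but it did not pass the F test among lines over all genes (edgeR adjusted p = 0.228). SUT1 passed without a low-count filter (edgeR adjusted p = 0.0387), where 82 genes or 0.165% passed, and without P3.9a replicate 1 (0.0117), where 740 passed. Of the 446 genes that DESeq2 called, 2 were in the list, SUT1 and the vacuolar invertase gene vi (DESeq2 adjusted p = 8.67e-06 and 0.0353).

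Genes of water deficit and abscisic acid, the setting in which galactinol synthases are best known, had a median log2 difference of -0.46 over 9 tested genes. None passed in edgeR, and 5 were lower at an unadjusted p under 0.05, against 11.4% of all genes in either direction. Nothing is read from that count, as this list too was chosen with earlier results known. Among its 446 calls DESeq2 had 1 of the list, TAF-3 (DESeq2 adjusted p = 0.00930). TAF-3 had -0.50 (SE 0.11, edgeR adjusted p = 0.0877). Of the NCED3 copies, which encode the step that limits abscisic acid synthesis, LOC107827644 had -0.61 (SE 0.15, adjusted p = 0.138). Without P3.9a replicate 1, edgeR called 3 of the list, TAF-3, TAF-2 and this copy, among 740 genes in all.

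Heat shock genes had a median log2 difference of -0.39 over 7 tested. None passed in edgeR, and 3 were lower at an unadjusted p under 0.05, again against 11.4% of all genes in either direction. The list was chosen with earlier results of these data known, so nothing is read from that count. DESeq2 called 1, HSP101, among its 446 (DESeq2 adjusted p = 0.000307). HSP101, a chaperone that resolves protein aggregates, had -1.30 (SE 0.26, edgeR adjusted p = 0.0849), and NtHSF1, a heat shock transcription factor, -0.73 (SE 0.20, adjusted p = 0.173). Without CK replicate 2 both passed, at -1.60 (edgeR adjusted p = 0.0153) and -1.01 (adjusted p = 0.0307), in a fit that called 48 genes, or 0.121% of those tested.

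**Figure D3:**
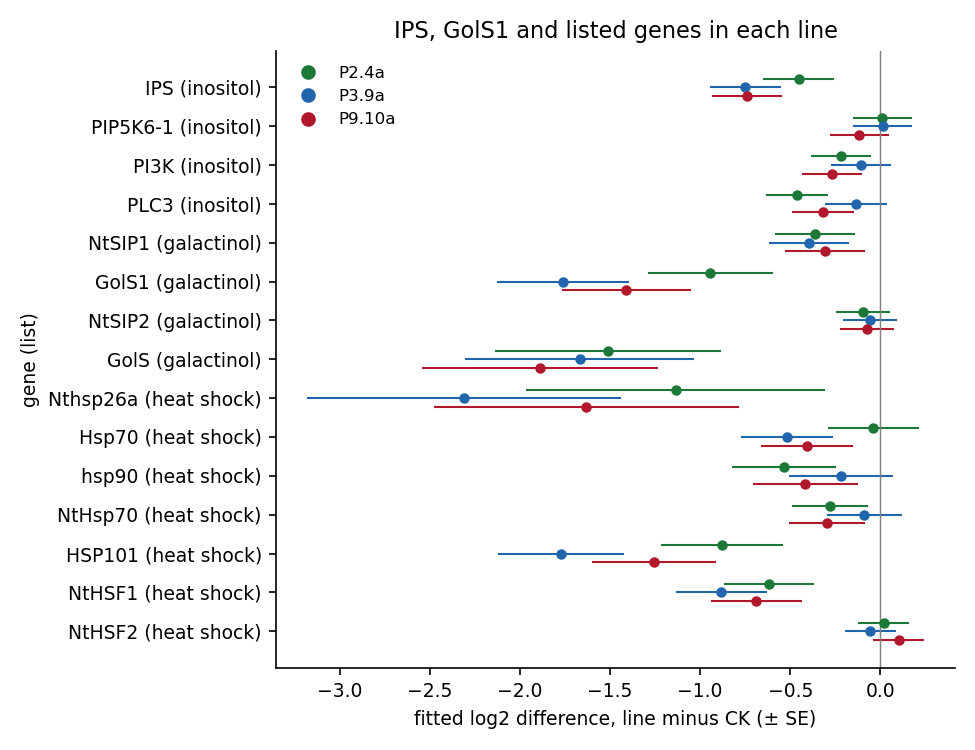
Fitted log2 difference of each line from CK, with its SE, for IPS, GolS1 and the tested genes of the inositol, galactinol and raffinose, and heat shock lists; the 3 comparisons share the CK libraries. GolS1 stands at -0.95 to -1.76 and IPS at -0.45 to -0.75, while PIP5K6-1 and NtHSF2 lie near 0 in each line.

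Heat shock genes had higher correlations with GolS1 than with IPS. Over the 12 libraries, which share the difference between CK and the lines, the 7 genes had a median Pearson r of 0.508 with GolS1 and 0.455 with IPS, where the medians over all 33205 genes compared were 0.0117 and 0.0105. With group means removed the medians were 0.626 for GolS1 and 0.0455 for IPS, against -0.00104 and 0.0138 over all genes compared. The value was higher for GolS1 in 6 of 7 genes, as in 16303 of all 33205. In HSP70-3 it was higher by little (0.0572 against 0.0455). GolS1 deviated most in CK replicate 2, and these values were not computed without that library. NtHSF1 had 0.859 with GolS1 inside groups and 0.235 with IPS. HSP101 had 0.797 and 0.10. NtHSF2 was the exception, at -0.470 with GolS1 and -0.412 with IPS. These values are descriptions of 12 libraries and carry no test.

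CK shows this pattern in single libraries. HSP101 stood at 345, 145 and 315 CPM in CK replicates 1 to 3. The small heat shock gene Nthsp26a stood at 120, 23.1 and 72.0 CPM, and NtHSF1 at 15.2, 7.21 and 14.7 CPM. CK replicate 2 was the lowest of the 3 for each of these genes, as it was for GolS1, and it was not the lowest for IPS. It was also the lowest for hsp90, NtHsp70 and HSP70-3, the last with 727, 618 and 775 CPM. For NtHSF2 CK replicate 2 was the highest, with 13.9, 15.6 and 11.8 CPM in replicates 1 to 3. How many of all genes had CK replicate 2 lowest in CK was not counted, so nothing is read from these orders.

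In the water deficit list P5CS, of proline synthesis, ran opposite to GolS1, with r = -0.844 over the 12 libraries and -0.764 inside groups. Its log2 difference from CK was 0.23 (SE 0.11, edgeR adjusted p = 0.471). The median r of this list was 0.432 with GolS1 and 0.427 with IPS, and inside groups 0.157 and 0.0344. SUT1 was the starch and sucrose gene closest to IPS, with r = 0.822 over the 12 libraries and 0.757 inside groups, against 0.668 and 0.412 with GolS1. SUT1 also belongs to the phloem markers, whose other genes SEO1, SEO2 and COV1 had log2 differences of 0.14, 0.18 and 0.06.

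**Figure D4:**
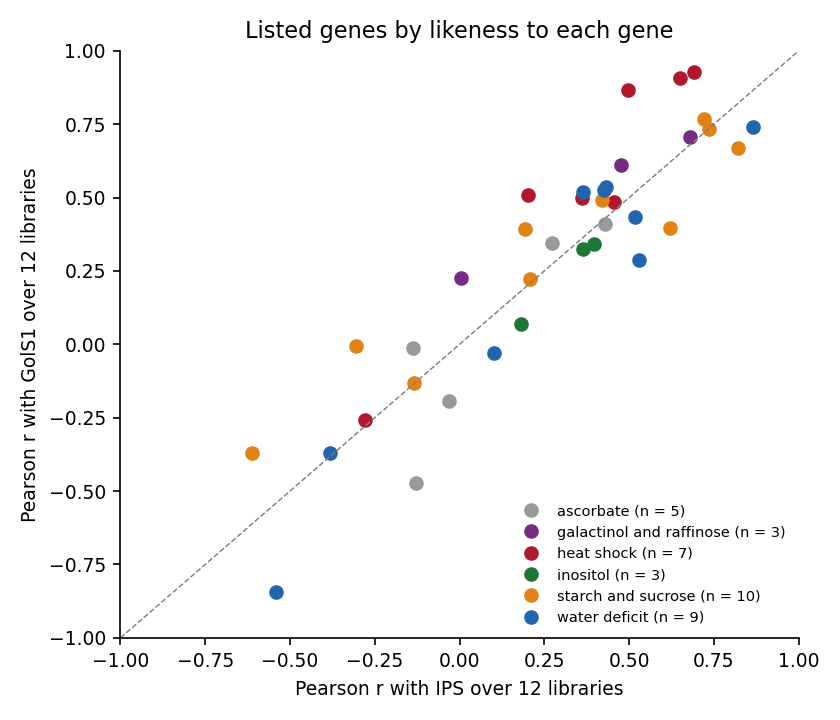
Pearson r of each listed gene with IPS (horizontal) and with GolS1 (vertical), over log2 CPM of 12 libraries; colours mark the list, and the dashed line marks equal r. The 7 heat shock genes lie above the line, HSP101 highest at 0.929 with GolS1 and 0.691 with IPS, and TAF-3 and SUT1 lie toward IPS.

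The genes most like each of the pair were different genes. Ranked by Pearson r of log2 CPM over the 12 libraries among 33204 genes, IPS was closest to LOC107783010 (r = 0.964), LOC107824323 (0.942), LOC107795866 (0.935), LOC107781010 (0.934) and LOC107783965 (0.930), none of which has a symbol. Inside groups these 5 genes kept r from 0.777 to 0.918. LOC107783010 stood at a mean of 3600 CPM in CK and 2900 in the lines, and LOC107795866 at 2140 and 1410. With a symbol, the closest to IPS were didiG2 (0.898), rbohF, an NADPH oxidase (0.881), CCD1, a carotenoid cleavage dioxygenase (0.881), TAF-3 (0.866) and CCD1-1 (0.842).

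GolS1 was closest to LOC107771371 (r = 0.959), LOC107786233 (0.958), LOC107767950 (0.936), LOC107796657 (0.934) and LOC107785229 (0.930), also without symbols. LOC107786233 stood at a mean of 77.3 CPM in CK and 29.3 in the lines, a log2 difference of -1.43, and inside groups its r with GolS1 was 0.936. LOC107771371 differed less, at 40.2 and 35.6 CPM. With a symbol, the closest were HSP101 (0.929), NtHSF1 (0.908), dnaJ, a co-chaperone (0.871), Nthsp26a (0.867) and CYP84A14v1, a cytochrome P450 (0.863). Without P3.9a replicate 1, LOC107824323 was the first for IPS and LOC107771371 for GolS1. IPS ranked 758 among the genes most like GolS1 (r = 0.675), and by r inside groups it ranked 13912.

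The genes next to each of the pair in the reference assembly did not pass. Of up to 3 genes on each side that were in the count table and tested, those near IPS had log2 differences of -0.25 (LOC107766503), 0.20 (LOC107800596) and -0.49 (LOC107800595, SE 0.21, edgeR adjusted p = 0.394). Those near GolS1 had 0.47 (LOC107794007), -0.09 (LOC107794005) and 0.14 (LOC107761932). LOC107794005, the tested gene next to GolS1, stood at 55.4 ± 3.93 CPM in CK (SD, n = 3) and 52.2 over the transgenic libraries.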

How the data were processed

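RNA was measured by sequencing in 12 leaf libraries, 3 in each of 4 groups taken from the sample titles. The values the authors deposited are raw counts per gene, in whole numbers. Per the submitters' processing notes, HISAT2 2.1.0, SAMtools and bedtools 2.25.0 were used. The genome build, annotation, counting rule and strandedness were not given in the sources used here. Coordinates are left out. Of 61526 identifiers, 49014 matched a gene table of tobacco assembly ASM71507v2 and 1081 had a symbol.

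Counts were fitted with edgeR 4.0.16 in R 4.3.3 (TMM scaling, filterByExpr with a minimum count of 10, robust quasi-likelihood, all 12 libraries, 8 residual degrees of freedom), with Benjamini-Hochberg adjustment over the 39207 genes tested and a threshold of 0.05. CK was subtracted from the mean of the lines and from each line, and the lines were compared with each other by an F test. Fold values are fitted log2 differences. Each SE is the absolute log2 difference divided by the square root of the quasi-likelihood F statistic of that comparison. Log2 CPM used a prior count of 2; likeness was ranked over genes with a mean log2 CPM of 1 or more. DESeq2 1.42.0 was an alternative, with other scalings, no filter, a replicate block and each library left out. The fit was tested on simulated data.

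The 2 genes and all lists were chosen with earlier results of these data known. Lists were matched on symbols; SIPK and its NtSIPK copy, which are kinases, and CHLI matched a listed symbol by spelling and were left out. Genes named are the pair, the 2 listed genes with the smallest p, other galactinol and inositol genes, P5CS, SEO1, SEO2, COV1 and NtHSF2 (chosen after their values were seen), neighbours, and the 5 genes most like each of the pair; the 5 with a symbol, and the neighbours, were added later. Protein families and promoter motifs were not analysed here. In 66 pairs of libraries none was identical, and chi-square per degree of freedom was 5.27 or more.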

Additional observations from a re-analysis of the deposited data

How the results depend on the processing

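The log2 differences of IPS and GolS1 from CK kept their sign and stayed within 1 within-group SD of the reported value under every alternative tried: other scalings, no low-count filter, DESeq2, a replicate block, the 6 libraries of a single line with CK, and each library left out. For GolS1 that SD, 0.53, was widened by CK replicate 2 and was 0.25 without it. Leaving that library out moved the mean difference of GolS1 from -1.37 to -1.75, by more than this smaller SD. With libraries left out, the mean of the lines ran from -0.73 to -0.60 for IPS and from -1.75 to -1.11 for GolS1. By line these ranges were -0.68 to -0.34 in P2.4a, -0.83 to -0.68 in P3.9a and -0.88 to -0.59 in P9.10a for IPS, and -1.33 to -0.68, -2.14 to -1.50 and -1.79 to -1.15 for GolS1. Among the alternatives that kept all 12 libraries, scaling by library totals alone gave the smallest mean differences, -0.57 and -1.29, and moved the median of all genes to 0.08 from 0.002. The correlation of IPS and GolS1 inside groups ran from -0.0792 (without P9.10a replicate 3) to 0.384 (without CK replicate 2), and it was negative also at -0.0603, -0.00698 and -0.00239 without P2.4a replicate 1, P2.4a replicate 3 and CK replicate 3; none of these values passed.

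The count of 15 genes over the whole table was 446 in DESeq2, 82 without a filter and 6 with library totals alone, and from 6 (without CK replicate 1) to 740 (without P3.9a replicate 1) with libraries left out. The count of 3 among lines was 45 in DESeq2 and from 2 to 6 with libraries left out. The galactinol and raffinose list had 0 or 1 called genes with libraries left out. With the replicate number as a block, 4 genes passed in place of 15. Same-numbered libraries correlated from -0.309 to 0.265 over 18 pairs, 4 of them over 0.1. Of the 12 libraries, 3 correlated best with one of their own number. With 3 libraries a group, these values cannot decide whether the numbers pair the samples. The protein families that were planned were not run. With 43 counts in its lowest library, GolS1 carries more counting error than IPS.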
